A study of Homo sapiens with 12 samples.

Results

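The MHC class I antigen presentation genes described here are 9 genes: the heavy chains HLA-B, HLA-C, HLA-E and HLA-F, the light chain B2M, the peptide transporter subunits TAP1 and TAP2, and the immunoproteasome subunits PSMB8 and PSMB9. They were taken from the raw count table by symbol, together with every row that carries the same symbol and a copy suffix such as HLA-B_4. This gave 61 rows of the 43735 in the table (9 of 39020 symbols), of which 13 had enough reads to be tested, among 14085 tested rows in all. The tested rows belong to 5 of the 9 genes, namely HLA-B, HLA-C, HLA-F, B2M and TAP2.

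MHC class I molecules carry peptides from inside the cell to its surface, where CD8 T cells and natural killer cells read them. The proteasome cuts the peptides, and interferon exchanges some of its catalytic subunits for PSMB8 and PSMB9. TAP1 and TAP2 form the transporter that moves peptides into the endoplasmic reticulum, where they are loaded onto a heavy chain bound to beta-2-microglobulin, the product of B2M. Myeloma cells are malignant plasma cells, which make antibody and keep a large endoplasmic reticulum.

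RNA was sequenced from 12 cultures of the human multiple myeloma cell lines MM1S and MM1R, which come from a single patient and are glucocorticoid-sensitive and glucocorticoid-resistant, respectively. Each line was left untreated (UT) or exposed for 3 h to 1 µM withaferin A (WA), a plant-derived compound studied as a kinase inhibitor, with 3 cultures in each of the 4 groups. The cultures of a group differ in passage number, which was 16, 22 and 23 for MM1S and 4, 6 and 7 for MM1R, so that line and passage cannot be told apart. Each line is 1 cell line, so that the spread between its cultures is not a spread between patients. Libraries held 17625110 to 19368343 reads on genes (median 18555625). Plasma cell markers were high in every library, with SDC1 between 565 and 931 CPM (reads scaled to the size of the library) and XBP1 between 1020 and 1659 CPM. Of the other cell types checked, CD3E reached 11.6 CPM, HBB 9.50 CPM and COL1A1 17.9 CPM, while CD3D and COL3A1 stayed at or below 1 read in a library. The part of these transcripts in the results below was not tested. In bulk RNA, fewer cells that express a gene and less of its RNA per cell cannot be told apart.

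HLA-B, HLA-C, HLA-E, HLA-F, TAP1, TAP2, PSMB8 and PSMB9 lie in the MHC on chromosome 6 and B2M lies on chromosome 15. On GRCh37, HLA-F spans 29690552 to 29706305 and HLA-E spans 30457286 to 30461971 on the plus strand, followed by HLA-C (31236526 to 31239907) and HLA-B (31321649 to 31334844) on the minus strand. TAP2 (32789610 to 32806516), PSMB8 (32808494 to 32812456) and TAP1 (32812986 to 32821593) follow on the minus strand, and PSMB9 (32811913 to 32827628) overlaps TAP1 on the plus strand. B2M spans 45003556 to 45011049 on the plus strand.

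The stretch before the start site is shown for the genes whose reads carry the results, so that their motif matches can be compared. Of the 4 motifs marked, the CCAAT box is in all of the printed promoters, TGACG is missing from HLA-F, kappaB matches are in HLA-B and B2M, and ISRE matches are in HLA-F and B2M. The RefSeq promoter table (GRCh38.p14) held 8 of the 9 genes. The 250 bases before the start site are printed 5′ to 3′ on the strand of the gene, at chr6:31357180-31357429 for HLA-B, chr6:31272093-31272342 for HLA-C, chr6:29723184-29723433 for HLA-F and chr15:44711267-44711516 for B2M. Capitals mark matches, on either strand, to a kappaB motif (GGG, any 2 bases, TT, any base, CC), the core of the interferon-stimulated response element (ISRE; GAAA, any 2 bases, GAAA), TGACG (bound by CREB and ATF factors) or the CCAAT box (CCAAT). In B2M the ISRE matches overlap each other. Forms of an element with other bases or spacing are not marked. The lack of an ISRE or kappaB match therefore does not show that a promoter lacks the element.
HLA-B: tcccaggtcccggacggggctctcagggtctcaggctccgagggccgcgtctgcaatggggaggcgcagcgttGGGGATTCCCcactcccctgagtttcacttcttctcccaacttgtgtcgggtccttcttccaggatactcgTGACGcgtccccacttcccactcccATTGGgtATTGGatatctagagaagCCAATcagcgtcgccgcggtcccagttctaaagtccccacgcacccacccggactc
HLA-C: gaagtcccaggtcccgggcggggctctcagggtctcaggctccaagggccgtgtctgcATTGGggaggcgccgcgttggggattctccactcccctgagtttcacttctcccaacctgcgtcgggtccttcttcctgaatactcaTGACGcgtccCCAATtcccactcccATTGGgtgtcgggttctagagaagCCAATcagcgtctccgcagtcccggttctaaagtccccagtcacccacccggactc
HLA-F: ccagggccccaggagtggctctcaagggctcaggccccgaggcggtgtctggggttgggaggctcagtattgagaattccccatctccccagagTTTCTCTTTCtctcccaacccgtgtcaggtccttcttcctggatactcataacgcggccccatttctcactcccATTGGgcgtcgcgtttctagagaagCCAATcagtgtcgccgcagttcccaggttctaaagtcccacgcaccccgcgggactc
B2M: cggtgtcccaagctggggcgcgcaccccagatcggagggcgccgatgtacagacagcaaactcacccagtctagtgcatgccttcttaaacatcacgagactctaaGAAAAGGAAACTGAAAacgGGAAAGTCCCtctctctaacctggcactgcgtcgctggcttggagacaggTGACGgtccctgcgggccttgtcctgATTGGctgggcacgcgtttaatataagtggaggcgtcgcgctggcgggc

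A CCAAT box stood in 6 of the 8 genes with a sequence, and in 32% of the 35116 promoters of the table at the same length. TGACG stood in 6 of the 8 genes and in 21.2% of all promoters. The ISRE core stood in 4 genes (HLA-F, B2M, TAP1 and TAP2) and in 3.02% of all promoters. The kappaB motif stood in 3 genes (HLA-B, B2M and TAP1) and in 5.07% of all promoters. It began 177 bases before the start site in HLA-B. The heat shock element (GAA, any 2 bases, TTC, any 2 bases, GAA) was in none of the 8 genes and in 0.441% of all promoters. A match of letters is not a site of binding, and binding was not measured. A gene without a match may hold a form of the element that the pattern misses.

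How the reads were spread over the rows limits every level given here. The 61 rows held 171250 reads over the 12 libraries, of which 20.8% lay on rows without a suffix. A total of 33 rows had no read and 15 had between 1 and 50, so that the 13 tested rows held 99.966% of the reads. HLA-B had 97129 reads on 6 rows, with 42270 on HLA-B_4, 32100 on HLA-B_1 and 22052 on the row without a suffix. HLA-C had 59203 reads on 7 rows, and only 1.14% of them lay on the row without a suffix, since HLA-C_2 held 30304 and HLA-C_3 held 22255. TAP2, part of the transporter, had 1808 reads, all on rows with a suffix and 1794 of them on TAP2_5. For HLA-F and B2M the row without a suffix held 97.7% of 468 reads and 99.1% of 12621 reads. The map of reads by row shows these few filled cells among rows that are nearly empty.

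**Figure D1:**
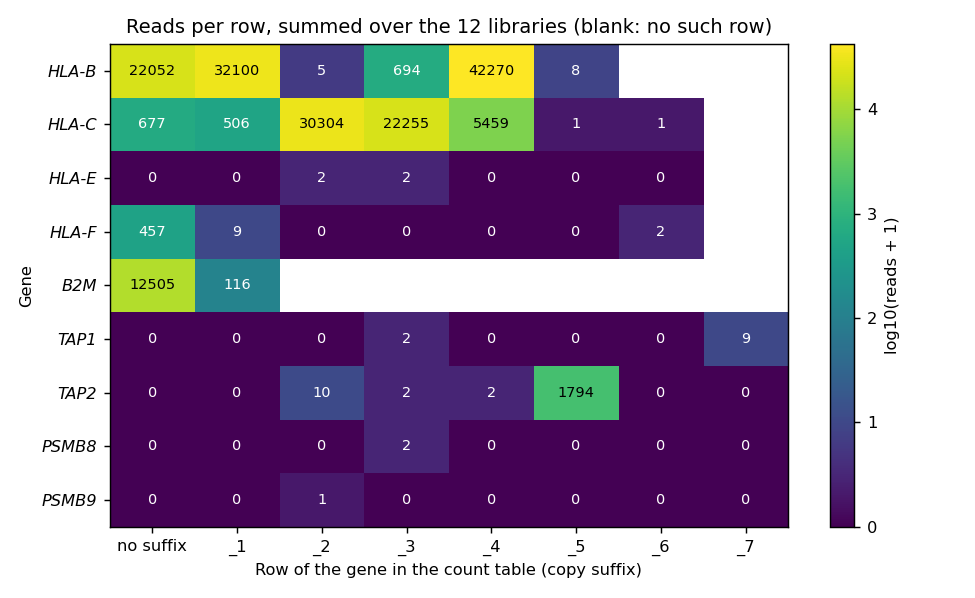
Reads on each of the 61 rows, summed over the 12 libraries, with genes as rows, the copy suffix as columns and the number of reads in each cell; colour is log10(reads + 1) and blank cells are rows that the table does not have. The reads lie on 4 rows of HLA-B, 5 of HLA-C, HLA-F, B2M and B2M_1, and TAP2_5, and no row of HLA-E, TAP1, PSMB8 or PSMB9 holds more than 9.

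HLA-E, TAP1, PSMB8 and PSMB9 are listed at or near 0. HLA-E, which presents leader peptides of other heavy chains to natural killer cells, had 4 reads over 7 rows and all libraries. TAP1 had 11 reads over 8 rows, PSMB8 had 2 and PSMB9 had 1, each over 8 rows. No library held more than 3 reads of any of these genes. Nearby genes that every cell uses were listed in the same way, as an inspection of the region after its values were seen showed. The ribosomal protein gene RPS18 had 153 reads over 6 rows, whereas 26 other RPS genes with 1 row each had a median of 160598 reads. The RNA helicase gene DDX39B had no read on 8 rows, and the chloride channel gene CLIC1 had 3 on 7 rows. Between HLA-F and TAPBP (chromosome 6, 29690552 to 33282061 on GRCh37), the row without a suffix had no read in 96 of 139 protein-coding genes (69.1%), against 13.2% of 17639 protein-coding genes with 1 row. All rows together had no read in 54 of the 139 genes (38.9%). A listing at 0 in this region is therefore given only as such, no level is compared between genes, and HLA-E, TAP1, PSMB8 and PSMB9 could not be compared between groups. How reads that fit several copies were counted is not given in the sources used here.

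Sequence shared with other genes adds to this. Of the 50-base windows in GENCODE transcripts, 29.6% of those of HLA-B, 18.5% of those of TAP2 and 5.46% of those of HLA-C also occur in another gene. For B2M and PSMB8 none did, and for HLA-F it was 0.982%. Copies under the same symbol were not compared, so these values do not show how many reads fit several copies of a gene. The HLA-B windows were shared mostly with DHFRP2 (1418 of 5086). The strand setting of the counting is not given, so that reads of PSMB9 and its neighbours TAP1 and PSMB8-AS1 could not be separated by strand.

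Levels of HLA-B, a classical heavy chain, lay further apart between passages of MM1S than between the means of the lines or treatments. Summed over its rows, untreated MM1S had 605, 335 and 293 CPM at passages 16, 22 and 23, and the WA cultures of the same passages had 633, 271 and 307 CPM. Untreated MM1R had 469, 495 and 480.5 CPM at passages 4, 6 and 7, and MM1R with WA had 465, 490.5 and 424 CPM. Both MM1S cultures of passage 16 lay above all MM1R cultures and the other 4 MM1S cultures lay below them, so that the groups of the lines overlapped only through passage 16. The group means were 482 ± 12.9 CPM (SD, n = 3) in untreated MM1R and 460.0 ± 33.5 CPM with WA, against 411 ± 169 CPM in untreated MM1S and 404 ± 199.7 CPM with WA. In this order of the 4 groups no neighbours differed beyond their spread.

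The row HLA-B_4 carried most of this. It had 317, 129 and 110.1 CPM in untreated MM1S at passages 16, 22 and 23, and 334, 105 and 116 CPM with WA. In MM1R it had 204, 204 and 196 CPM untreated and 193, 204 and 179 CPM with WA. The passage 16 cultures thus held 2.66 times (untreated) and 3.03 times (WA) the mean of the other 2 cultures of their group. Among genes of at least 10 CPM, 0.323% of 8664 (untreated) and 0.331% of 8752 (WA) reached a ratio of 2.5 at passage 16. For the other rows of HLA-B with over 50 CPM, the ratios were smaller, namely 1.45 and 1.67 for HLA-B and 1.49 and 1.66 for HLA-B_1.

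HLA-B reads were therefore split differently at passage 16. HLA-B_4 took 52.5% of the HLA-B reads of the untreated passage 16 library and 52.8% of those of the WA library. In the other MM1S libraries it took 37.6% to 38.6%, and in MM1R it took 40.9% to 43.5%. The exact 95% binomial interval reached 51.6% at its lowest for passage 16 and no higher than 44.5% in any other library. These intervals cover counting error only. Between the untreated and the WA library of the same passage the share moved by 0.20 to 0.34 percentage points in MM1S, and by -2.05, 0.26 and 1.25 in MM1R. The cell lines' alleles were not read from these data, and which copy a row stands for is not given in the sources used here.

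**Figure D2:**
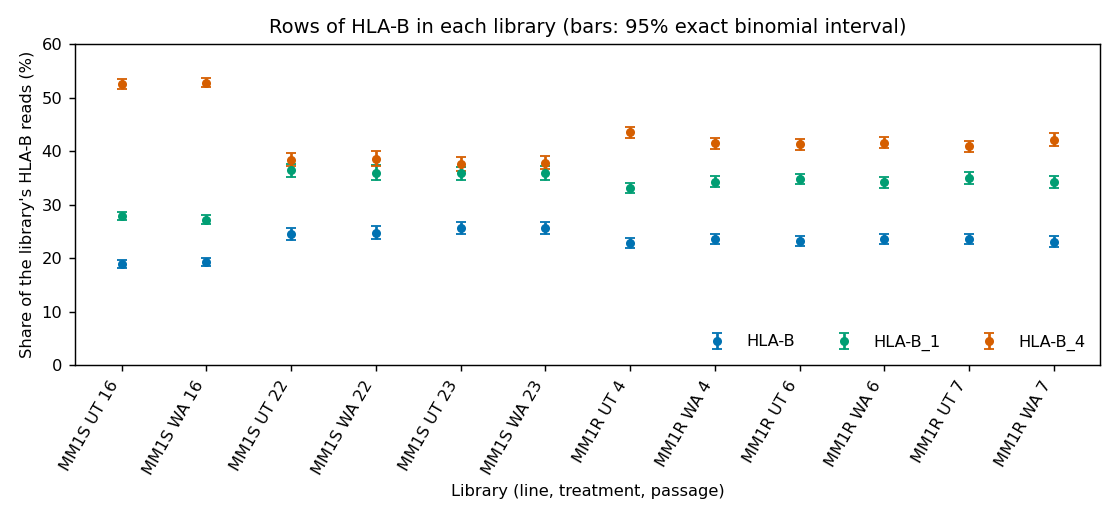
Share of each library's HLA-B reads, in percent, on the rows HLA-B, HLA-B_1 and HLA-B_4, with libraries named by line, treatment and passage; points are shares and bars are exact 95% binomial intervals. In both MM1S libraries of passage 16, HLA-B_4 lies at 52.5% and 52.8% and the other rows lie lower than in the remaining 10 libraries.

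HLA-C, the other classical heavy chain measured here, varied less. Untreated MM1S had 334, 264 and 227 CPM at passages 16, 22 and 23, and 341, 214 and 232 CPM with WA, summed over rows. MM1R had 264, 276 and 287 CPM untreated and 252, 272 and 239 CPM with WA. The passage 16 cultures were again the highest of their line, at 1.36 and 1.53 times the mean of the other 2. The main rows were close to this sum, with ratios of 1.34 and 1.57 for HLA-C_2 and 1.45 and 1.64 for HLA-C_3, whereas HLA-C_4 had ratios of 1.13 and 1.04. The shares of the main rows were steadier than for HLA-B, since HLA-C_2 held 48.5% to 53.8% of HLA-C reads in every library and HLA-C_3 held 36.3% to 39.8%. HLA-C_4 held 7.45% (MM1R, WA, passage 7) to 12.7% (MM1S, WA, passage 22), against 9.60% in untreated MM1S of passage 22.

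HLA-F, a heavy chain that is mostly kept inside the cell, was thinly covered. The row without a suffix had 63, 29 and 23 reads in untreated MM1S and 62, 19 and 27 with WA, in the order of passages 16, 22 and 23. In MM1R it had 51, 33 and 28 reads untreated and 42, 45 and 35 with WA. In CPM, passage 16 exceeded the mean of the other 2 MM1S cultures 2.47 times untreated and 2.7 times with WA. Its antisense partner HLA-F-AS1 cannot be told apart from it without strand.

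B2M, the light chain common to all class I molecules, was higher in MM1R than in MM1S in every culture of the same treatment. Its row without a suffix had 58.0, 37.5 and 45.1 CPM in untreated MM1S at passages 16, 22 and 23, and 61.2, 38.8 and 45.1 CPM with WA. MM1R had 61.8, 64.0 and 74.7 CPM untreated at passages 4, 6 and 7, and 62.1, 62.4 and 70.7 CPM with WA. The groups of the lines did not overlap under either treatment, as in 32.3% (untreated) and 29.1% (WA) of all tested rows. Passage 16 came within 5 CPM of the lowest MM1R culture. The second row, B2M_1, held only 4 to 16 reads per library. How reads that fit both rows were counted is not given in the sources used here, which limits the level of B2M as well.

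TAP2 ran the other way, as its counted row was higher in MM1S. TAP2_5 had 8.08, 9.45 and 9.99 CPM in untreated MM1S and 8.02, 8.06 and 10.2 CPM with WA, at passages 16, 22 and 23. MM1R had 7.29, 6.75 and 7.64 CPM untreated and 6.51, 6.92 and 7.85 CPM with WA. The lines did not overlap under either treatment, as in 32.3% (untreated) and 29.1% (WA) of all tested rows. Passage 16 was the lowest MM1S culture under both treatments, at 0.83 and 0.88 times the mean of the other 2. The plots of levels by library show passage 16 as the highest MM1S culture for HLA-B, HLA-C, HLA-F and B2M. For TAP2 summed over rows it is the lowest when untreated. For B2M it still lies below every MM1R culture of the same treatment.

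**Figure D3:**
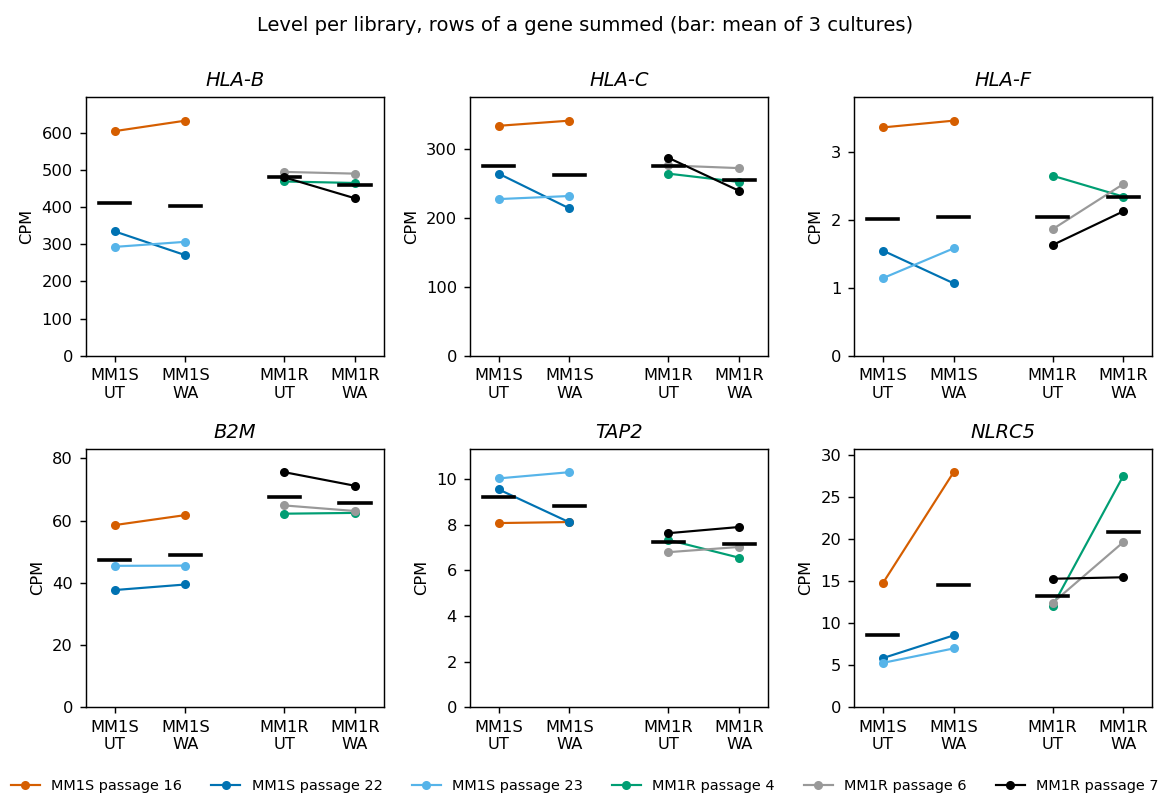
CPM in each library for HLA-B, HLA-C, HLA-F, B2M and TAP2 (rows of a gene summed) and for the regulator NLRC5, with untreated and WA cultures of the same passage joined by a line and horizontal bars at the mean of 3 cultures. MM1S passage 16 is the highest MM1S culture for each of these genes but TAP2, and MM1R lies above MM1S passages 22 and 23 for HLA-B and B2M.

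The first question was whether the resistant line differed from the sensitive line. Between untreated MM1R and untreated MM1S, 0 of the 13 member rows passed both limits (adjusted p 0.01 and at least 1 in size on the log2 scale, in the quasi-likelihood test of edgeR), whereas 2.97% of all tested rows did. By DESeq2 it was also 0 rows, beside 4.05% of all tested rows. At an unadjusted p under 0.05 there was 1 member row by edgeR, B2M, and 2 by DESeq2, beside 25.9% and 26.2% of all tested rows. The median log2 fold change of the member rows was 0.05, beside 0.01 over all tested rows. B2M had a log2 fold change of 0.51 (SE 0.18, edgeR adjusted p = 0.077), which DESeq2 gave an adjusted p of 0.044. TAP2_5 had -0.35 (SE 0.16, edgeR adjusted p = 0.20). Groups did not overlap for these 2 rows, and 32.3% of all tested rows had groups that did not overlap.

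With WA in both lines, MM1R was compared with MM1S in the same way. Of the 13 rows 0 passed both limits by either tool, beside 3.04% of all tested rows by edgeR and 4.1% by DESeq2. B2M was again the 1 row with an unadjusted p under 0.05 by either tool (28.0% of all tested rows by edgeR and 27.9% by DESeq2), with a log2 fold change of 0.43 (SE 0.18, edgeR adjusted p = 0.13). TAP2_5 had -0.31 (SE 0.16, edgeR adjusted p = 0.24). HLA-C_4, B2M and TAP2_5 had groups that did not overlap, against 29.1% of all tested rows. The median over member rows was 0.05, and over all tested rows it was -0.01. The lines' comparisons without and with WA use different cultures of the same passages.

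The MM1S cultures of passage 16 decided how large the difference of HLA-B appeared. With all libraries HLA-B_4 differed by a log2 fold change of 0.12 (SE 0.41) untreated and 0.05 (SE 0.41) with WA. Leaving out both passage 16 cultures, a choice made after seeing the data that leaves 2 cultures in each MM1S group, gave 0.75 (SE 0.12, edgeR adjusted p = 0.00058) and 0.79 (SE 0.12, edgeR adjusted p = 0.00036). B2M then had 0.69 (SE 0.14, edgeR adjusted p = 0.0033) and 0.63 (SE 0.14, edgeR adjusted p = 0.0052). HLA-B and HLA-B_1 lay between 0.51 and 0.60 in both comparisons. These 4 rows were the members with an adjusted p of at most 0.01 in each comparison, with no limit on the fold change, beside 8.87% (untreated) and 11.6% (WA) of all tested rows in the same fits. With all 12 libraries it was 0 member rows in each, beside 4.83% (untreated) and 4.94% (WA) of all tested rows. None of the 4 reached a log2 fold change of 1, and the 3 HLA-B rows belong to 1 gene. The cultures left out were those through which HLA-B overlapped between the lines, so the adjusted p-values of these fits are no independent test. HLA-C_2 and HLA-C_3 had values from 0.17 to 0.27 and did not pass.

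**Figure D4:**
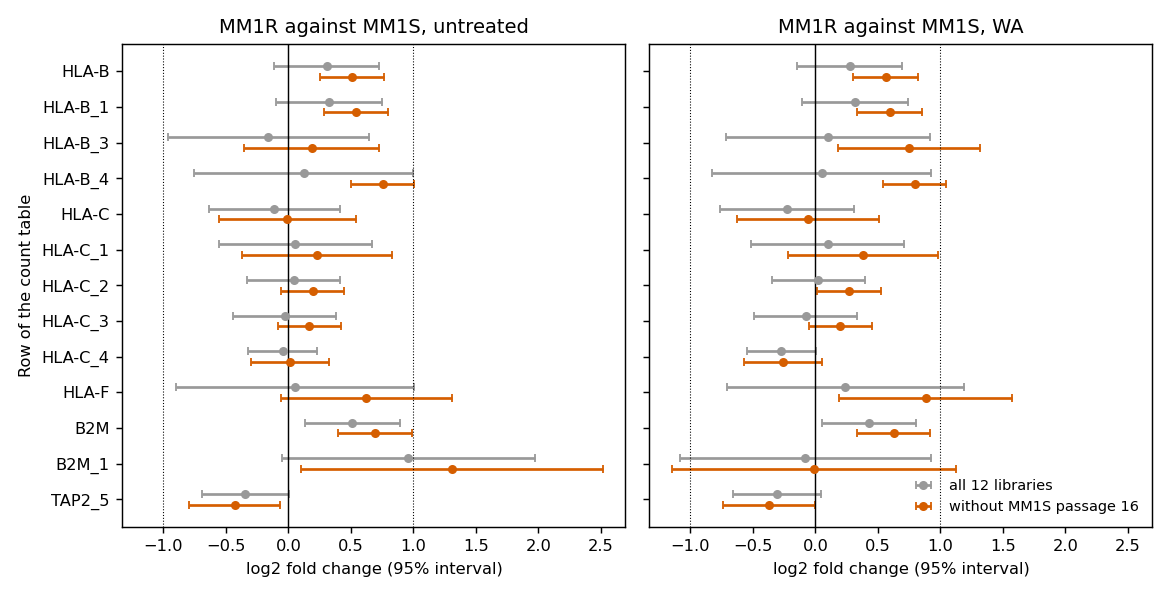
Log2 fold change of MM1R against MM1S for the 13 tested rows, untreated and with WA, with 95% intervals from edgeR; grey is the fit of all 12 libraries, orange the fit without both MM1S cultures of passage 16, and dotted lines mark a change of 1. HLA-B_4 moves from 0.12 to 0.75 (untreated) and from 0.05 to 0.79 (WA), while TAP2_5 stays below 0 in each fit. The cultures left out were chosen after seeing the data.

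The second question was what 3 h of WA did in each line. In MM1R, 0 of the 13 member rows passed at an adjusted p of 0.05 by edgeR, whereas 14% of all tested rows did. In MM1S it was also 0 of 13, against 10.5% of all tested rows. DESeq2 passed 0 member rows in either line, beside 17.6% of all tested rows in MM1R and 14% in MM1S. No member row reached an unadjusted p under 0.05 in either line, by edgeR (28.4% of all tested rows in MM1R and 24.9% in MM1S) or by DESeq2 (28.3% and 25.0%). Median log2 fold changes of the member rows were -0.07 in MM1R and -0.02 in MM1S, beside 0.01 over all tested rows in both. Groups did not overlap for HLA-C_3 in MM1R (33.3% of all tested rows) and for no row in MM1S (30.3% of all tested rows).

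With passage as a block, which compares each WA culture with the untreated culture of its own passage, the spread set by passage 16 drops out. The count remained 0 of 13 in both lines, although with the block the calls over all tested rows came to 29.1% in MM1R and 24.1% in MM1S. Summed over its rows, HLA-B then changed by -0.07 in MM1R (95% interval -0.26 to 0.12) and by -0.06 in MM1S (-0.25 to 0.13) on the log2 scale. HLA-C changed by -0.12 (-0.31 to 0.07) and -0.08 (-0.27 to 0.11). For the row B2M the values were -0.04 (-0.21 to 0.14) and 0.04 (-0.13 to 0.22), and for TAP2_5 they were -0.03 (-0.32 to 0.26) and -0.07 (-0.35 to 0.21). For HLA-F the intervals were wider, -0.34 to 0.71 in MM1R and -0.57 to 0.52 in MM1S. These intervals do not show that WA was without effect.

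Pair by pair, the WA cultures went both ways. On the log2 scale (CPM plus 0.5), HLA-B summed over rows changed by 0.07, -0.31 and 0.07 in MM1S at passages 16, 22 and 23, and by -0.01, -0.01 and -0.18 in MM1R at passages 4, 6 and 7. HLA-C summed over rows changed by 0.03, -0.31 and 0.03 in MM1S and by -0.07, -0.02 and -0.26 in MM1R. B2M stayed between -0.08 and 0.08 in all 6 pairs. The thinly covered HLA-C row without a suffix was lower with WA in all 6 pairs, by -0.07 to -0.33, and passed in neither line (with the block, log2 fold change -0.29, SE 0.18, edgeR adjusted p = 0.27 in MM1R and -0.18, SE 0.18, edgeR adjusted p = 0.49 in MM1S). The median over the member rows was lowest at passage 22 of MM1S (-0.29) and passage 7 of MM1R (-0.21).

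**Figure D5:**
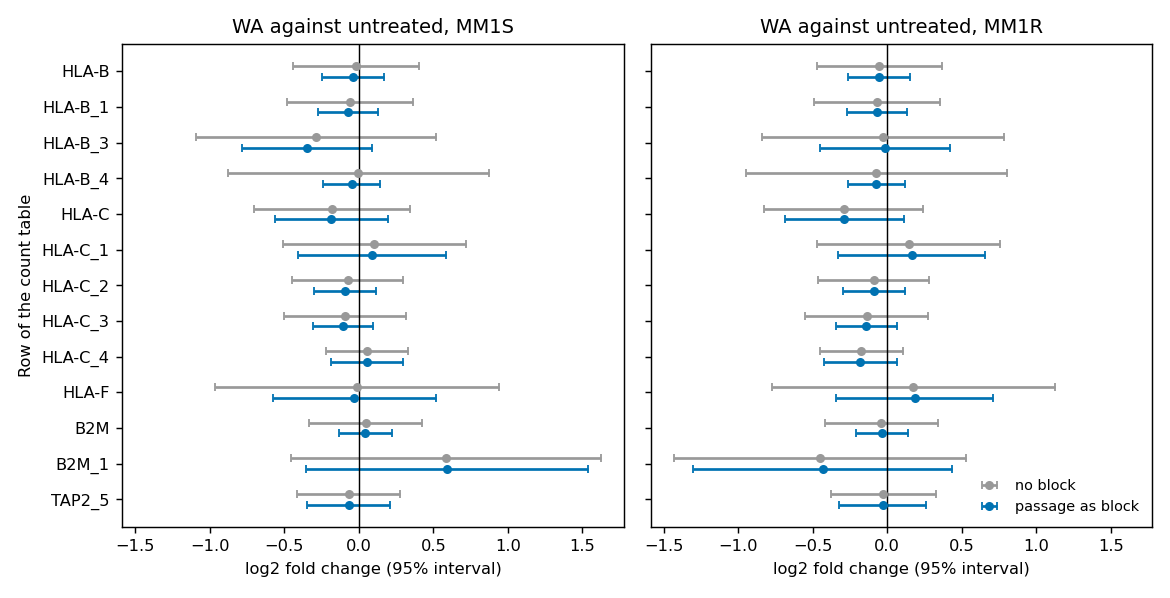
Log2 fold change of WA against untreated cultures for the 13 tested rows in MM1S and MM1R, with 95% intervals from edgeR; grey is the fit without a block and blue the fit with passage as block. All intervals cross 0, and the block narrows those of HLA-B_4 most, to -0.24 to 0.14 in MM1S and -0.26 to 0.12 in MM1R.

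The effect of WA was not shown to differ between the lines. In the interaction 0 of the 13 member rows passed an adjusted p of 0.05, as did 0% of all tested rows by edgeR and 0.0071% by DESeq2. No member row had an unadjusted p under 0.05 by edgeR or by DESeq2. The smallest was that of B2M_1, with an unadjusted p of 0.14, which rests on 4 to 16 reads per library. With the block, the difference between the lines was -0.01 for HLA-B summed over rows (95% interval -0.28 to 0.26) and -0.08 for the row B2M (-0.33 to 0.17).

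Other genes of the pathway were read from lists. The peptide loading complex and its trimming enzymes (10 tested rows of 8 genes, among them CALR, CANX, ERAP1 and TAPBP) had 0 rows past the limits in each of the 4 comparisons between groups without a block. Over all tested rows it was 2.97% (lines, untreated), 3.04% (lines, WA), 14% (WA in MM1R) and 10.5% (WA in MM1S). With no limit on the fold change, 1 of the 10 rows had an adjusted p of at most 0.01 between the lines. The share of all tested rows was 4.83% untreated and 4.94% with WA. The row was that of PDIA3, a protein disulfide isomerase of the complex. PDIA3 was lower in MM1R, by a log2 fold change of -0.75 (SE 0.12, edgeR adjusted p = 0.0010) untreated and -0.76 (SE 0.12, edgeR adjusted p = 0.00094) with WA. It had 355 to 407 CPM in untreated MM1R and 585 to 679 CPM in untreated MM1S, at passage 16 as at the others. With the block, CANX and CANX_1, rows of the chaperone calnexin, were higher with WA in MM1S, by a log2 fold change of 0.27 and 0.26. In that fit 24.1% of all tested rows passed. Among 8 tested genes of other proteasome subunits, activators and the assembly factor POMP, only PSMB5 passed with WA in MM1R. There 14% of all tested rows passed. PSMB5 was lower (-0.42, SE 0.11, edgeR adjusted p = 0.023). PSMB5 is the constitutive subunit that PSMB8 replaces. It had 59.8, 59.1 and 75.6 CPM untreated and 44.9, 50.3 and 49.6 CPM with WA at passages 4, 6 and 7 of MM1R. In MM1S, PSMB5 had -0.28 (SE 0.11, edgeR adjusted p = 0.14) without the block and passed with it (-0.28, SE 0.09, edgeR adjusted p = 0.046). PSMB10, a further subunit that interferon induces, was also tested. With WA it had -0.19 (SE 0.13, edgeR adjusted p = 0.38) in MM1R and -0.18 (SE 0.13, edgeR adjusted p = 0.46) in MM1S. It passed in neither line, without or with the block.

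Among 16 tested transcription factors that act on class I genes, 6 passed with WA in MM1R and 3 in MM1S, where 14% and 10.5% of all tested rows passed. Of the 6, 5 were lower and 1 was higher, and of the 3, 2 were lower and 1 was higher. NFKB1, a subunit of NF-kappaB, was lower in both lines (-0.77, SE 0.11 in MM1R and -0.65, SE 0.11 in MM1S). RFX5, a subunit of the factor that binds the X box of MHC promoters, was lower as well (-0.38 and -0.37, SE 0.09 for both). CREB1, which binds TGACG elements, was higher in MM1S (0.42, SE 0.11) and in MM1R (0.37, SE 0.11), and ATF1 was lower in MM1R (-0.46, SE 0.13). The list's median was -0.18 in MM1R and -0.14 in MM1S, beside 0.01 over all tested rows. With the block, 9 of 16 passed in MM1R and 8 in MM1S, beside 29.1% and 24.1% of all tested rows, and these included a higher value of NLRC5 in both lines. None of the 16 passed between the lines, beside 2.97% (untreated) and 3.04% (WA) of all tested rows.

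NLRC5, the transactivator of class I genes, is singled out after its values were seen, because its levels followed the passages as those of HLA-B did. It had 14.8, 5.84 and 5.27 CPM in untreated MM1S at passages 16, 22 and 23, and 28.0, 8.54 and 6.99 CPM with WA. MM1R had 12.03, 12.4 and 15.3 CPM untreated and 27.5, 19.6 and 15.5 CPM with WA. Passage 16 of MM1S held 2.66 and 3.60 times the mean of the other 2 cultures, and lay within the range of MM1R when untreated. With the block, NLRC5 was higher with WA by 0.63 (SE 0.18, edgeR adjusted p = 0.021) in MM1R and 0.66 (SE 0.20, edgeR adjusted p = 0.028) in MM1S. Without it the adjusted p of NLRC5 by edgeR was 0.39 and 0.37. Of the 14 listed factors with at least 10 CPM in untreated MM1S, 0 reached a ratio of 1.5 at passage 16. NLRC5, with a mean of 8.62 CPM there, was not among the 14. With WA, 3 of 15 reached this ratio, NLRC5 among them. Of the interferon-stimulated genes of at least 10 CPM, 1 of 6 untreated and 1 of 5 with WA reached this ratio, MX1 in both cases (3.71 and 3.53). The medians of these rows were 1.22 and 1.25. Below 10 CPM, on fewer reads, the ratios were 2.76 and 2.47 for ISG15, 1.95 and 2.22 for IFI6. They were 3.03 and 2.51 for IFI44, and 3.54 and 4.29 for XAF1. Lower ratios were those of GBP2 (1.21 and 1.19), IFIT3 (1.12 and 0.78) and IFIT1 (1.33 and 0.55). IRF7_1 had 1.09 and 1.67, and IFIT5 had 1.39 with WA. Of the 2 class II rows of at least 10 CPM, CD74 reached a ratio of 1.5 under both treatments (1.70 and 1.82). The other of the 2, HLA-DPB1_2, had 303, 318 and 310 reads in untreated MM1S. There passage 16 read like the other cultures of its line and unlike MM1R (107 to 151 reads). Class II rows below 10 CPM, on fewer reads, had ratios from 1.00 (HLA-DRB1_5) to 3.16 (HLA-DOB_2) untreated. With WA their ratios ran from 1.05 (HLA-DRA_1) to 3.23 (HLA-DOB_2). Over all genes of at least 10 CPM, 3.14% (untreated) and 4.33% (WA) reached a ratio of 1.5 at passage 16. The part of other differences between the passages in these values was not tested.

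Some molecules related to class I rose with WA. Of 6 tested rows of class I-like molecules and ligands of the natural killer receptor NKG2D, 4 were higher with WA in both lines and 0 were lower, where 14% (MM1R) and 10.5% (MM1S) of all tested rows passed in either direction. ULBP3 had 16 to 26 reads in untreated MM1R and 148 to 155 with WA (log2 fold change 2.81, SE 0.27, edgeR adjusted p = 2.6e-05). In MM1S it had 13 to 17 reads and 129 to 230 with WA (3.61, SE 0.28, edgeR adjusted p = 5.2e-06). MICA, a stress-induced ligand encoded near HLA-B, had no read on the row without a suffix, while MICA_3 had 110 to 125 reads in untreated MM1R and 203 to 240 with WA (0.96, SE 0.15, edgeR adjusted p = 0.0012). In MM1S, MICA_3 had 113 to 122 reads untreated and 239 to 285 with WA (1.26, SE 0.15, edgeR adjusted p = 0.00016). MICA_2 and ULBP1 were the other 2 rows, and untreated ULBP1 had as few as 1 read in a library. The list's median was 0.93 in MM1R and 1.04 in MM1S.

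Class II genes gave 1 of 9 tested rows in each comparison of the lines, beside 2.97% (untreated) and 3.04% (WA) of all tested rows. It was HLA-DPB1_2, which was lower in MM1R (-1.21, SE 0.17 untreated and -1.03, SE 0.17 with WA). The effect of WA passed for 0 class II rows, beside 14% (MM1R) and 10.5% (MM1S) of all tested rows. Of 14 tested interferon-stimulated genes, 1 passed between the lines untreated and 2 with WA, beside 2.97% and 3.04% of all tested rows. The guanylate-binding protein gene GBP2 was lower in MM1R (-1.79, SE 0.28 untreated and -2.07, SE 0.25 with WA), and so was GBP1 with WA (-1.85, SE 0.22). The median of the 14 went the other way, at 0.34 untreated and 0.50 with WA. Over all tested rows it was 0.01 and -0.01. For the effect of WA, 3 of the 14 passed in MM1R and 5 in MM1S, in both directions, beside 14% and 10.5% of all tested rows. With the block it was 7 and 9 of 14, beside 29.1% and 24.1% of all tested rows. IFIT5, an interferon-induced RNA-binding protein, was lower in both lines (-3.57, SE 0.30 and -3.10, SE 0.30), and GBP2 was higher in both (1.13, SE 0.29 and 1.41, SE 0.24). XAF1 was higher in MM1R (2.86, SE 0.77) and IFIT3 was lower in MM1S (-1.76, SE 0.45). The difference of these values between the lines was not significant for any gene by edgeR.

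The pattern of the class I genes over the 12 libraries was summarised as the mean of the scaled log2 CPM of HLA-B, HLA-C, HLA-F and B2M, the 4 members whose row without a suffix was tested. The HLA-C row in it held 36 to 77 reads per library and correlated with the main rows HLA-C_2 and HLA-C_3 by only 0.44 and 0.61, so that 1 of the 4 terms rests on few of the reads of its gene. Of 8772 other rows of at least 10 CPM, TSPO (r = 0.957), PTK2B (r = 0.953), ARAP1 (r = 0.948) and HDAC7 (r = 0.937) were among the 5 most alike. These values describe 12 libraries that share passages and fall into clusters, so no p is given. PTK2B, a tyrosine kinase, had 737, 579 and 570.1 CPM in untreated MM1S at passages 16, 22 and 23 and 692 to 714 CPM in untreated MM1R. TSPO, a mitochondrial membrane protein, had 47.6, 39.6 and 36.1 CPM and 44.4 to 45.9 CPM in the same groups.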

How the data were processed

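RNA sequencing of 12 cultures was analysed, 3 in each of 4 groups, as grouped by the sample labels. Per the submitters' processing notes, reads were checked with FastQC 0.11.5 and mapped with STAR 2.7.3a, with hg19 as genome. The authors deposited raw counts per gene, which are used here, and a table of normalized signal (counts divided by DESeq2 size factors), which was not used. Annotation, strand setting and the handling of reads that fit several copies are not given in the sources used here. Rows were kept by filterByExpr (minimum count 10), scaled with TMM and tested with edgeR 4.0.16 in R 4.3.3, all 12 libraries being fitted together, with the quasi-likelihood test and Benjamini-Hochberg adjusted p-values over all tested rows. For the lines the limits were 0.01 for the adjusted p and 1 for the size of the log2 fold change, and for WA 0.05 for the adjusted p. SE were derived from the F statistic. The scripts were tested on simulated data.

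Alternatives were DESeq2 1.42.0, its size factors, other filters, copies summed, passage as block, the 6 libraries of a comparison and each library left out. Passage numbers come from the labels, and untreated and WA cultures of the same passage were treated as pairs. Their deviations correlated by 0.43, 0.22 and 0.25 (passages 4, 6 and 7) and 0.74, 0.26 and 0.49 (passages 16, 22 and 23). Untreated passage 22 correlated more with WA passage 23 (0.35), and untreated passage 23 correlated with WA passage 22 by 0.42. The correlations therefore do not separate the pairs of passages 22 and 23, which rest on the labels. No replicates were 1 library deposited more than once (chi-square per degree of freedom 8.74 to 48.7). Replicates were cultures of 1 line, so p-values measure only the spread between cultures. The members and gene lists were chosen with earlier results of these data known. All 9 members are named, up to 3 passing genes per list and comparison with the smallest p (with their values in the other line; NLRC5, MX1, CD74, PDIA3, CANX and ULBP1 were added after their values were seen), and the 5 genes most like the members, of which 1 is not reported here.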

Additional observations from a re-analysis of the deposited data

How the results depend on the processing

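The count of member rows past the limits stayed at 0 in all 5 comparisons under each alternative run, which included DESeq2, other filters and size factors, summed copies and the replicate block. With the replicate block, for example, HLA-B changed with WA by -0.06 (SE 0.10) in MM1R and -0.04 (SE 0.10) in MM1S. No block could be fitted for the comparison of lines, since no passage number occurs in both, and no fit of 6 libraries exists for the interaction. Of 1314 values of single rows under the alternatives, 125 had another sign than the value reported, 115 of them within 1 SE of 0 and 102 with 1 library left out. The smallest adjusted p over all of them was 0.000359 (HLA-B_4 between the lines with WA, edgeR, without both MM1S cultures of passage 16). DESeq2 gave no adjusted p for B2M_1 with WA in MM1S.

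Without both MM1S cultures of passage 16, chosen after seeing the data, HLA-C_3 turned from -0.03 to 0.17 (untreated) and from -0.08 to 0.20 (WA) between the lines. Leaving out 1 culture at a time moved the WA effect in MM1S from -0.75 to 0.63 for HLA-B_4 and from -0.66 to 0.56 for HLA-F, in each case with the WA and the untreated culture of passage 16 left out, respectively. It moved HLA-C_3 between the lines with WA from -0.22 to 0.20. In the difference between lines it gave -0.24 to 0.26 for HLA-B, -0.23 to 0.27 for HLA-B_1, -0.70 to 0.67 for HLA-B_4, -0.17 to 0.23 for HLA-C_2 and -0.25 to 0.23 for HLA-C_3. Depth limits HLA-F, B2M_1 and every row with few reads, and the counting of gene copies, those of B2M included, limits all levels.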
